A study of Mus musculus with 2 samples.

Results

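Genes that bind, move or sense zinc, iron and copper were compared between small intestinal epithelial cells of miR-215-/- mice and of miR-215+/+ mice. They were chosen by symbol: every listed zinc transporter of the Slc30a and Slc39a families, the metallothioneins with their zinc sensor, and a set of iron and copper genes. That gave 50 genes of the 23284 listed in each library, and 39 of the 50 reached 1 FPKM in at least 1 library. The set was put together with the ratios between these libraries already known, so its own ratios are a description. FPKM counts fragments relative to transcript length and library depth, so levels can be compared between genes. There was 1 mRNA sequencing library for the miR-215 knockout and 1 for the wild type, so no difference has a replicate check and no p-value is given. Strain, sex, age, diet, the number of animals behind each library and the way the microRNA was removed are not named in the labels used here. Both groups are bulk preparations, in which fewer cells of a type and less RNA per cell cannot be told apart.

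Zinc enters the enterocyte from the gut lumen through Slc39a importers and leaves it, or is packed into vesicles, through Slc30a exporters. Inside the cell, metallothioneins bind zinc and copper through their many cysteines. Their genes are switched on by the zinc-sensing transcription factor MTF1, which binds metal response elements in their promoters. Dietary iron is reduced at the brush border, taken up by DMT1 (Slc11a2), stored in ferritin and exported by ferroportin (Slc40a1) together with the ferroxidase hephaestin. Iron regulatory proteins 1 and 2 bind hairpins in messenger RNAs called iron-responsive elements: in the leader of ferritin and ferroportin messages they restrain translation, and in the tail of the transferrin receptor message they protect the RNA from decay. Copper enters through CTR1 (Slc31a1), is handed to pumps by the chaperone ATOX1 and leaves the enterocyte through ATP7A.

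The sequences below are shown because the largest differences fell on the metallothionein genes, and because the study's microRNA acts through its seed. The mature miR-215-5p is read from chromosome 1, 185313610 to 185313630 on the plus strand, and miR-192-5p, which shares its seed, from chromosome 19, 6264857 to 6264877 on the plus strand. Sequences and positions are RefSeq's on GRCm38.p6, and capitals mark bases 2 to 8, the seed.
mmu-miR-215-5p: aUGACCUAugauuugacagac
mmu-miR-192-5p: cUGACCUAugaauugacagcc

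The promoters of Mt1 and Mt2, the metallothionein genes expressed in gut, run from 250 bases before to 50 bases after the RefSeq start. Mt2 (chr8:94172368-94172667) and Mt1 (chr8:94178839-94179138) are both on the plus strand of GRCm38.p6. Capitals mark the core of the metal response element, searched on both strands as TGCACNC or TGCGCNC, where cores on opposite strands may overlap.
Mt2: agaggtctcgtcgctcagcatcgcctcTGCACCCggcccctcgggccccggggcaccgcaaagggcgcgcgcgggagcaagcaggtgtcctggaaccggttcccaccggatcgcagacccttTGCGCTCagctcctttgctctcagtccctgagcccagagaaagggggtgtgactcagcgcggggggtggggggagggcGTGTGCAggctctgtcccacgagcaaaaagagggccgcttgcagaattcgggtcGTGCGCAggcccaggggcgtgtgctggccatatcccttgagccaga
Mt1: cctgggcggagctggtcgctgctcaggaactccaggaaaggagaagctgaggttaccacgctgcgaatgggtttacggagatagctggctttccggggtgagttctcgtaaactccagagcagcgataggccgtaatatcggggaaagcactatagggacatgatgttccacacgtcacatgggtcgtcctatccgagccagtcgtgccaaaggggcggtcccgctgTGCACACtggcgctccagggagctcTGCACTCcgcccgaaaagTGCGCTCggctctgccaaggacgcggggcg

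The Mt2 window held 4 cores and the Mt1 window 3. In Mt2 they began at -223, -128, -50 and 5 from the start, and in Mt1 at -23, 3 and 21. These counts and positions depend on the annotated start, which was not checked, and a start placed elsewhere would give another window. Of 32851 mouse promoter windows of the same length, 25.7% held at least 1 core, 1.97% at least 3 and 0.517% at least 4. Promoter windows were matched for 41 of the 50 genes, and 4 of these 41 had a window with at least 3 cores: Mt2, Mt1 and the exporters Slc30a10 and Slc30a4, each of these exporters with 3. In Slc30a10 the cores at -233 and -232 overlap on opposite strands, which leaves 2 separate stretches. The 41 are genes, each taken at its window of most cores, while the shares above are of windows. A match describes the letters of the window and not a site that is used.

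**Figure D1:**
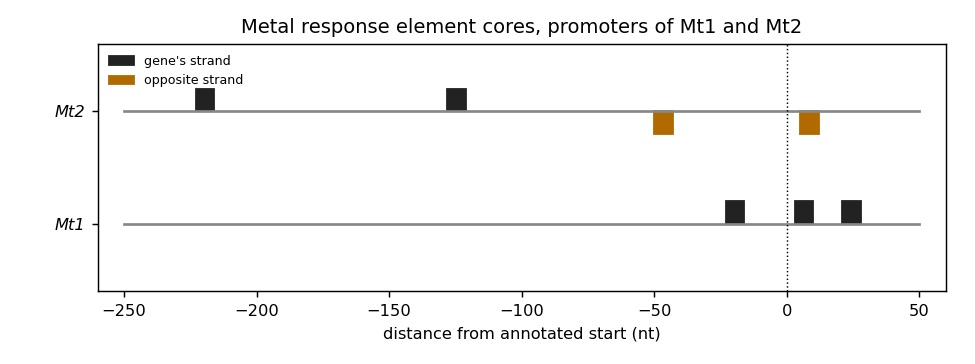
Position of metal response element cores (7 bases, boxes) in the promoter windows of Mt2 and Mt1, by distance in nucleotides from the annotated start (dotted line). Boxes above the line are on the gene's strand and boxes below it on the opposite strand. The 3 cores of Mt1 sit close to the annotated start, while the 4 cores of Mt2 are spread from -223 to 5. Number and position depend on that start, which was not checked.

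The iron-responsive elements were searched as hairpins of a C, 5 bases, the loop CAGTGN and 5 bases that pair with the first 5, G-T pairs included. They are shown because ferritin, ferroportin and the transferrin receptor are the iron genes whose values are described in most detail. Among the 50 genes, a hairpin was found in the 5' untranslated region of Fth1 (chr19:9982738-9982754, plus strand), Ftl1 (chr7:45459785-45459801, minus strand) and Slc40a1 (chr1:45925471-45925487, minus strand). Tfrc held 4 hairpins in its 3' untranslated region on the plus strand of chromosome 16, from 32631225 to 32631732. Positions are those of GENCODE M21 on GRCm38, and capitals mark the loop.
Fth1: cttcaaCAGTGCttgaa
Ftl1: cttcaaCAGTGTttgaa
Slc40a1: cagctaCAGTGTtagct
Tfrc, first of 4: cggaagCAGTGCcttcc
Tfrc, last of 4: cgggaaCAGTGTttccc

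Such a hairpin was present in 0.148% of the 20899 genes with an annotated 5' untranslated region and in 0.613% of the 21028 genes with an annotated 3' untranslated region. The search allowed no unpaired or mismatched base in the stem, so it can miss other forms of the element. A gene without a match is not shown to lack an element, and the count for Tfrc is of matches to this form only.

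The targeted microRNA gene could not be checked in these libraries. Mir215 was listed at 0 FPKM in the knockout library and at 137 FPKM in the wild-type library, but the gene is 112 nt long, shorter than the estimated fragment length of 220 nt, and the libraries were made from polyadenylated RNA. Epithelial identity was clear in both: all 12 absorptive enterocyte markers were listed above 0, with the most abundant, Apoa1, at 17185 FPKM in the knockout library and 18904 FPKM in the wild-type library. The summed FPKM were 683884 in the knockout library and 750631 in the wild-type library, a ratio of 0.911, so small ratios below 1 need care. A gene of 2 kb at 1 FPKM rested on about 18.1 fragments in the knockout library and 17.4 in the wild-type library. The intervals given with folds are 95% Clopper-Pearson intervals from estimated fragments and speak to counting error alone.

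The metallothioneins stood out. Mt1 was at 155 FPKM in the knockout library and 509 FPKM in the wild-type library, a fold of 0.304 (0.275 to 0.336). Mt2 was at 39.8 FPKM in the knockout library and 172 FPKM in the wild-type library, a fold of 0.230 (0.186 to 0.282). Both genes were thus lower in the knockout library, Mt1 by 3.29-fold and Mt2 by 4.34-fold, and both were still abundant there. The Mt1 values rested on about 517 fragments in the knockout library and 1635 in the wild-type library, and the Mt2 values on 117 in the knockout library and 490 in the wild-type library. Together the pair summed to 194 FPKM in the knockout library and 682 FPKM in the wild-type library. On the log2(FPKM + 1) scale, knockout minus wild type, the differences were -1.71 for Mt1 and -2.09 for Mt2. When genes were limited to the 1220 that reached 100 FPKM in either library, Mt2 had the 11th lowest and Mt1 the 16th lowest log2 ratio. Mt1 reached 100 FPKM in both libraries. Mt2 did so in the wild-type library alone, so its low place was partly set by that limit.

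Mt1 and Mt2 lie side by side on chromosome 8, Mt2 from 94172664 to 94173568 and Mt1 from 94179082 to 94180327, with 5513 bases between them. The other 2 metallothionein genes of the cluster, Mt3, known from brain, and Mt4, known from stratified squamous epithelium, were listed at 0 in both libraries. Mtf1, which encodes the zinc sensor, was at 9.86 FPKM in the knockout library and 7.67 FPKM in the wild-type library, a ratio of 1.29. The sensor's own message therefore did not share the direction of the metallothioneins.

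**Figure D2:**
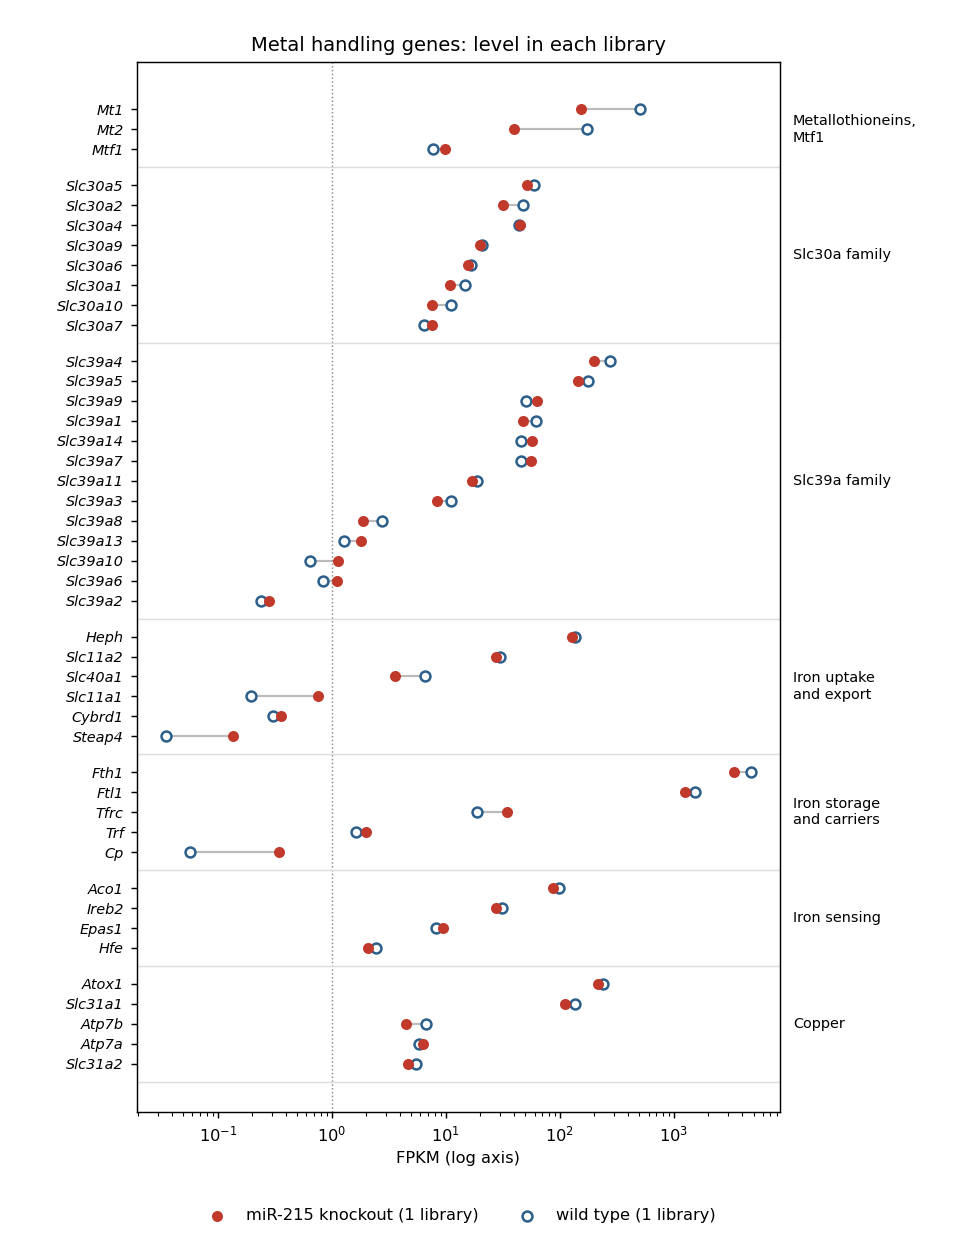
Level of each gene in FPKM (log axis) in the miR-215 knockout library (filled red) and the wild-type library (open blue), by role; the 6 genes at 0 in both libraries are left out and the dotted line marks 1 FPKM. Mt1 and Mt2 lie far to the left in the knockout library, Tfrc lies to the right of its wild-type value, and the pairs of Cp, Slc11a1 and Steap4 are wide but below 1 FPKM.

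Counted by size, 2 of the 39 genes of at least 1 FPKM had a knockout value 2-fold lower or more, Mt1 and Mt2, against 2.04% of all 11504 genes that passed the same minimum. None was at least 2-fold higher, against 1.34% of all genes. At 1.5-fold, 3 of 39 were lower, Mt1, Mt2 and Slc40a1, against 7.26% of all genes, and 1 of 39 was higher, Tfrc, against 4.83%. Since the set was chosen with these ratios known, nothing is read from the shares. The zinc granule exporter Slc30a2 lay just short of the 1.5-fold size. Log2 ratios below 0 were found for 26 of the 39, Heph, Slc11a2, Slc30a6 and Slc30a9 among them, which equal sums put above 0, where 56% of all genes were below 0. The median log2 ratio of the 39 was -0.16 and that of all 11504 genes -0.05. These sizes are on the log2(FPKM + 1) scale, which understates differences of low genes. Slc39a10 and Slc39a6 reached 1 FPKM in the knockout library only.

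Zinc exporters of the Slc30a family differed by less than 1.5-fold on that scale in all 8 measured members. The most abundant, Slc30a5, which loads zinc into the secretory pathway, was at 51.2 FPKM in the knockout library and 59.0 FPKM in the wild-type library, a fold of 0.867 (0.811 to 0.932). Its partner Slc30a6 was at 15.7 FPKM in the knockout library and 16.7 FPKM in the wild-type library. The ratios of Slc30a6 and of Slc30a9, a mitochondrial member, were under 1 here and move above 1 when the knockout values are raised to equal sums. Slc30a4, a vesicular zinc transporter, was level at 44.5 FPKM in the knockout library and 43.7 FPKM in the wild-type library.

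The lower members of the family were Slc30a2, Slc30a10 and Slc30a1. Slc30a2, which fills secretory granules with zinc and is known from Paneth cells, was at 31.7 FPKM in the knockout library and 47.7 FPKM in the wild-type library, a ratio of 0.664. The other Paneth markers went both ways beside it. The most abundant, Defa24, was at 2651 FPKM in the knockout library and 2362 FPKM in the wild-type library, with Lyz1 at 832 FPKM in the knockout library and 638 FPKM in the wild-type library and Ang4 at 66.5 FPKM in the knockout library and 131 FPKM in the wild-type library. The part of Paneth cell numbers in the Slc30a2 value was not tested. Slc30a1, the exporter at the cell surface and with the metallothioneins a known target of MTF1, was at 10.9 FPKM in the knockout library and 14.8 FPKM in the wild-type library, a ratio of 0.738.

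Slc30a10, a manganese exporter, was at 7.6 FPKM in the knockout library and 11.0 FPKM in the wild-type library, a ratio of 0.689. It is also the nearest of the 50 genes to the targeted locus on chromosome 1, starting at 185454848, which is 141155 bases beyond the end of Mir215. Slc30a7, of the early secretory pathway, was at 7.54 FPKM in the knockout library and 6.44 FPKM in the wild-type library. Slc30a9, linked to mitochondrial zinc, was at 19.9 FPKM in the knockout library and 20.8 FPKM in the wild-type library. Slc30a3, of synaptic vesicles, and Slc30a8, of insulin granules, were listed at 0 in both.

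Zinc importers of the Slc39a family had no common direction among the 12 measured members. Slc39a10 and Slc39a6 passed the minimum through the knockout library alone, so their direction was set by it. Of the other 10, 4 were above 0 and 6 below on the log2 scale, with a median of -0.20, and with those 2 the median was 0.03. Slc39a4, the zinc importer of the enterocyte's luminal face, which is mutated in the human zinc deficiency acrodermatitis enteropathica, was the most abundant. It was at 200 FPKM in the knockout library and 278 FPKM in the wild-type library, a fold of 0.718 (0.694 to 0.746). Slc39a5, the importer of the basolateral face, was at 146 FPKM in the knockout library and 176 FPKM in the wild-type library, a ratio of 0.829. Both importers that define the polarised enterocyte were thus lower in the knockout library, by less than the metallothioneins. Markers of absorptive enterocytes were on the same side, with 11 of 12 below 0, where 56% of all genes were, and a median log2 ratio of -0.14. That count depends on the scaling: the ratios of Apoa1 (0.909), Lct (0.909) and Epcam (0.910) were close to the ratio of summed FPKM, 0.911. Among the markers, Alpi, brush border alkaline phosphatase, was at 616 FPKM in the knockout library and 878 FPKM in the wild-type library. The part of enterocyte content in the importer values was not tested.

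Among the importers of the cell surface, Slc39a1 was at 47.9 FPKM in the knockout library and 61.3 FPKM in the wild-type library. Slc39a3 was at 8.38 FPKM in the knockout library and 11.1 FPKM in the wild-type library. These 2 also had ratios below 1, of 0.782 for Slc39a1 and 0.757 for Slc39a3. Slc39a11, a more distant relative, was at 17 FPKM in the knockout library and 18.7 FPKM in the wild-type library.

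Slc39a7 and Slc39a9, which release zinc from internal stores, were on the other side. Slc39a7, of the endoplasmic reticulum, was at 56.2 FPKM in the knockout library and 45.3 FPKM in the wild-type library, a ratio of 1.24. Slc39a9, of the Golgi, was at 62.9 FPKM in the knockout library and 50.9 FPKM in the wild-type library, also a ratio of 1.24. Slc39a14, which carries manganese and iron besides zinc, had the same ratio of 1.24, at 56.7 FPKM in the knockout library and 45.6 FPKM in the wild-type library. Its relative Slc39a8 was low and on the other side, at 1.90 FPKM in the knockout library and 2.74 FPKM in the wild-type library.

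The remaining importers were low or not detected. Slc39a10 was at 1.14 FPKM in the knockout library and 0.647 FPKM in the wild-type library, about 61 fragments in the knockout library and 33 in the wild-type library. Its close relative Slc39a6 was at 1.10 FPKM in the knockout library and 0.837 FPKM in the wild-type library. Slc39a13, of intracellular vesicles, was at 1.82 FPKM in the knockout library and 1.29 FPKM in the wild-type library. The counting intervals of Slc39a6 and Slc39a13 included a ratio of 1. Slc39a2 rested on about 6 fragments in the knockout library and 5 in the wild-type library, and Slc39a12, known from brain, was listed at 0 in both.

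**Figure D3:**
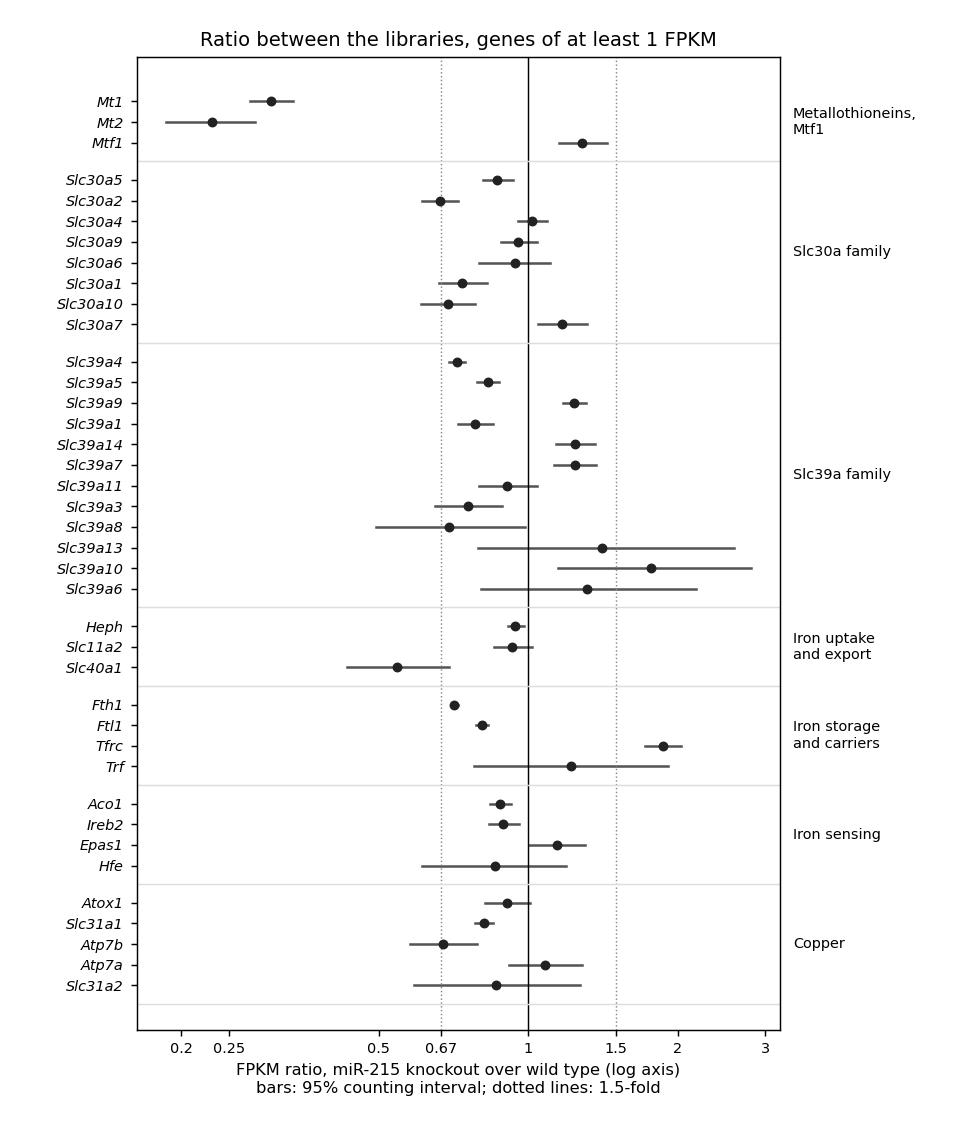
FPKM ratio, miR-215 knockout over wild type (log axis), for the 39 genes that reached 1 FPKM, with 95% counting intervals from estimated fragments; dotted lines mark 1.5-fold in each direction. Mt1 (0.304) and Mt2 (0.230) lie far left of the other genes, Slc40a1 (0.546) is next, and Tfrc (1.87) is the gene of narrow interval on the right.

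Of the iron uptake and export genes, Heph and Slc11a2 were nearly level between the libraries and Slc40a1 was lower. Heph, the ferroxidase of iron export and the most abundant of these genes, was at 129 FPKM in the knockout library and 137 FPKM in the wild-type library, a fold of 0.942 (0.910 to 0.979). Slc11a2, the importer DMT1, was at 27.7 FPKM in the knockout library and 29.9 FPKM in the wild-type library, a ratio of 0.929. Both ratios move above 1 when the knockout values are raised to equal sums. Slc40a1, ferroportin, was at 3.58 FPKM in the knockout library and 6.56 FPKM in the wild-type library, a fold of 0.546 (0.432 to 0.693) on about 115 fragments in the knockout library and 202 in the wild-type library.

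Cybrd1, the ferric reductase of the duodenal brush border, was at only 0.356 FPKM in the knockout library and 0.308 FPKM in the wild-type library. Both preparations held transcripts of upper and lower gut: the most abundant upper gut marker, Fabp1, was at 6247 FPKM in the knockout library and 7846 FPKM in the wild-type library, and the ileal bile acid binding gene Fabp6 was at 3554 FPKM in the knockout library and 4354 FPKM in the wild-type library. The 9 measured proximal markers, 1 of which is Slc40a1 itself, had a median log2 ratio of -0.14, with the transcription factor gene Gata4 at 34.6 FPKM in the knockout library and 51.0 FPKM in the wild-type library. The other proximal markers of largest difference were Adh6a, at 451 FPKM in the knockout library and 862 FPKM in the wild-type library, and Ada, on the other side at 1076 FPKM in the knockout library and 854 FPKM in the wild-type library. The 9 measured distal markers had a median of -0.29, led by Guca2a at 689 FPKM in the knockout library and 1309 FPKM in the wild-type library. The part of gut region in the ferroportin value was not tested.

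Iron storage and iron uptake from blood were on opposite sides. Fth1, the heavy chain of ferritin and the most abundant of the 50 genes, was at 3357 FPKM in the knockout library and 4729 FPKM in the wild-type library, a fold of 0.710 (0.702 to 0.722). Ftl1, the light chain, was at 1246 FPKM in the knockout library and 1545 FPKM in the wild-type library, a ratio of 0.806. Both ferritin genes have processed copies in the genome, so their values carry an uncertainty from fragments that match a copy as well. Tfrc, the receptor that takes up transferrin-bound iron, was at 34.7 FPKM in the knockout library and 18.6 FPKM in the wild-type library, a fold of 1.87 (1.72 to 2.03). It was the highest of the 39 log2 ratios at 0.86. Among the genes that match the form searched here, Tfrc carries the hairpins in its 3' untranslated region. Fth1, Ftl1 and Slc40a1, all lower in the knockout library, carry theirs in the 5' untranslated region. The search can miss other forms of the element, so this is not a division of all the iron genes. Genes without a match, such as Slc11a2 at a ratio of 0.929 and Epas1 at 1.14, are placed on neither side. Whether the hairpins have a part in these values was not tested.

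Red blood cell genes were also lower in the knockout library: the 3 measured members had a median log2 ratio of -2.15, with Hba-a1 at 5.33 FPKM in the knockout library and 28.6 FPKM in the wild-type library. The summed level of that list was 16.1 FPKM in the knockout library and 81.7 FPKM in the wild-type library. The part of blood cells in the ferritin and transferrin receptor values was not tested. Trf, transferrin, was at 2.0 FPKM in the knockout library and 1.64 FPKM in the wild-type library.

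Cp, Slc11a1 and Steap4 were higher in the knockout library at very low levels. Cp, the plasma ferroxidase ceruloplasmin, was at 0.343 FPKM in the knockout library and 0.0567 FPKM in the wild-type library, about 13 fragments in the knockout library and 2 in the wild-type library, a fold of 6.06 (1.42 to 57.1). Slc11a1, the metal pump of the macrophage phagosome, was at 0.754 FPKM in the knockout library and 0.196 FPKM in the wild-type library, about 16 fragments in the knockout library and 4 in the wild-type library, a fold of 3.85 (1.24 to 15.8). Steap4, a metalloreductase, rested on about 4 fragments in the knockout library and 1 in the wild-type library, and its interval included 1.

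Markers of other cell types also differed between the libraries. Of the 10 measured fibroblast and smooth muscle markers, Des, Col6a1, Col3a1 and Myh11 passed the minimum through the knockout library alone. The other 6 were each at least 1.5-fold higher there, against 4.83% of all genes. Vim, the most abundant, was at 11.0 FPKM in the knockout library and 6.56 FPKM in the wild-type library. The 12 listed summed to 55.5 FPKM in the knockout library and 18.5 FPKM in the wild-type library. Markers of macrophages, dendritic cells and neutrophils went both ways, with 10 of 12 above 0 on the log2 scale, of which Emr1 passed the minimum through the knockout library alone. The most abundant, Tyrobp, was at 22.1 FPKM in the knockout library and 30.1 FPKM in the wild-type library, and Fcer1g was also lower, at 16.5 FPKM in the knockout library and 24.8 FPKM in the wild-type library. Their list summed to 116 FPKM in the knockout library and 102 FPKM in the wild-type library, with the complement gene C1qa at 12.3 FPKM in the knockout library and 4.93 FPKM in the wild-type library and S100a8 at 0 in both. The part of these cells in the values of Cp, Slc11a1 and Steap4 was not tested.

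The iron sensors differed little. Aco1, iron regulatory protein 1, was at 86.6 FPKM in the knockout library and 98.5 FPKM in the wild-type library, a fold of 0.879 (0.839 to 0.925). Ireb2, iron regulatory protein 2, was at 27.5 FPKM in the knockout library and 30.9 FPKM in the wild-type library. Epas1, which encodes hypoxia-inducible factor 2 alpha, the factor that drives iron absorption genes in the gut, was at 9.45 FPKM in the knockout library and 8.27 FPKM in the wild-type library. Hfe, mutated in human haemochromatosis, was at 2.09 FPKM in the knockout library and 2.44 FPKM in the wild-type library, and Hamp, the liver hormone hepcidin, was listed at 0 in both.

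Copper genes had 4 of 5 ratios below 1, where 56% of all genes were below, and none past 1.5-fold. Of the 4, the counting intervals of Atox1 and Slc31a2 included 1. Atox1, the copper chaperone, was at 216 FPKM in the knockout library and 238 FPKM in the wild-type library, a fold of 0.905 (0.818 to 1.01). Slc31a1, the copper importer CTR1, was at 110 FPKM in the knockout library and 135 FPKM in the wild-type library, a ratio of 0.814. The pump genes were low, with Atp7a, the pump of the enterocyte, at 6.34 FPKM in the knockout library and 5.87 FPKM in the wild-type library. Atp7b, the pump best known from liver, was at 4.48 FPKM in the knockout library and 6.65 FPKM in the wild-type library, a ratio of 0.673. Slc31a2, a relative of the importer, was at 4.71 FPKM in the knockout library and 5.46 FPKM in the wild-type library.

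The members were then searched for the match to the miR-215 seed, the letters TAGGTCA, in the longest annotated 3' untranslated region on the transcribed strand. It was present in 5 of the 50 genes, which is 10%, and in 6.39% of the 21028 genes with an annotated 3' untranslated region. Slc30a9 held 2 matches and the others 1 each. They are printed with flanking bases, in GENCODE M21 coordinates on GRCm38, with the match in capitals.
Aco1, chr4:40198169-40198191, plus strand: cttgtagaTAGGTCAcccgtcaa
Heph, chrX:96531356-96531378, plus strand: tatactttTAGGTCAtatataca
Slc30a9, chr5:67354756-67354778, plus strand: tggctgctTAGGTCAcccacggt
Slc30a9, chr5:67355983-67356005, plus strand: gggatagaTAGGTCAttgggtag
Slc31a2, chr4:62298050-62298072, plus strand: accaaagcTAGGTCAttttaaga
Slc39a9, chr12:80681462-80681484, plus strand: attgtcacTAGGTCAgccagcag

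Of these 5 genes, Slc39a9 had a knockout to wild-type ratio of 1.24. The ratios of the other 4 were 0.879 for Aco1, 0.942 for Heph, 0.956 for Slc30a9 and 0.862 for Slc31a2, of which those of Heph and Slc30a9 move above 1 at equal sums. The genes of largest difference, Mt1, Mt2, Slc40a1 and Tfrc, held no such match. A match describes the letters and is not evidence that the site is used. Only 1 transcript of each gene was searched. The Heph match ends at 96531378, well before the gene's annotated end at 96574485, so transcripts that run to that end may lack it.

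Related lists outside the 50 genes are described in the same way. Like the 50 genes and the cell markers, they were chosen with earlier results of these data known. Nothing is therefore read from their shares, here or below. Of 6 measured genes reported as targets of MTF1, 2 had a knockout value lower by 1.5-fold or more and none was higher by as much, where 7.26% of all genes were lower by that size, and the median log2 ratio was -0.38. In this list 4 genes were below 0, where 56% of all genes were, and 2 above, Gclc and Txnrd1, both named after their values were seen. Gclc, Gclm, Txnrd1 and Hmox1 are also in the list of oxidative stress genes given further below. Ndrg1 is also in the list of the hypoxia-inducible factor pathway. Txnrd1, a thioredoxin reductase, was at 115 FPKM in the knockout library and 102 FPKM in the wild-type library, and Gclc had a ratio of 1.10 (0.978 to 1.24). Ndrg1, a stress-responsive gene, led at 45.3 FPKM in the knockout library and 131 FPKM in the wild-type library, a fold of 0.346 (0.325 to 0.371). Gclm, a subunit of the enzyme that makes glutathione's precursor, was at 86.2 FPKM in the knockout library and 137 FPKM in the wild-type library. The other MTF1 targets of largest difference were Sepw1, at 141 FPKM in the knockout library and 183 FPKM in the wild-type library, and Hmox1, whose interval of 0.319 to 1.26 included 1, at 1.16 FPKM in the knockout library and 1.80 FPKM in the wild-type library.

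Metallothionein genes are also known to be induced by glucocorticoids, and glucocorticoid-inducible genes were on the other side. All 12 measured genes of that list were above 0, 8 of them at least 1.5-fold higher in the knockout library, and their median log2 ratio was 0.96. Of all 11504 genes, 5059 were above 0 and 4.83% were higher by that size. The list was chosen with earlier results of these data known, so nothing is read from these shares. Fkbp5, a co-chaperone of steroid receptors, was at 28.8 FPKM in the knockout library and 3.11 FPKM in the wild-type library. The clock gene Per1 had a ratio of 5.05 and Ddit4, an inhibitor of mTOR signalling, a ratio of 3.91. Pck1, the key enzyme of gluconeogenesis and the most abundant of the list, was at 574 FPKM in the knockout library and 235 FPKM in the wild-type library. Whether these genes and the metallothioneins share a cause was not tested.

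Haem genes were mostly lower in the knockout library. Of all 11504 genes, 56% were also below 0 on the log2 scale and 7.26% were lower by 1.5-fold or more. Of 8 genes of haem synthesis, 7 were below 0, with a median log2 ratio of -0.26 and 1 past 1.5-fold. That was Cpox, at 11.8 FPKM in the knockout library and 18.5 FPKM in the wild-type library. Alas1, which catalyses the first step and was the most abundant, was at 50.1 FPKM in the knockout library and 73.9 FPKM in the wild-type library. Urod, which acts later in the pathway, had a ratio of 0.695.

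Of 11 genes of haem transport and breakdown, 8 were below 0 and 2 past 1.5-fold, against 56% and 7.26% of all genes. The median was -0.38. Blvrb, a biliverdin reductase, was at 27.2 FPKM in the knockout library and 48.6 FPKM in the wild-type library, and Abcg2, a pump of haem and porphyrins, at 106 FPKM in the knockout library and 178 FPKM in the wild-type library. Hmox2, a haem oxygenase, had a ratio of 0.683, and Slc46a1, the folate and haem importer, was at 118 FPKM in the knockout library and 170 FPKM in the wild-type library.

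The 17 measured genes of iron chaperones and iron-sulfur clusters had a median of -0.22. Below 0 were 13 of them, against 56% of all genes, and none was past 1.5-fold. The largest were Fbxl5, which targets iron regulatory protein 2 for degradation, at a ratio of 0.699, Hscb at 0.685, Cisd1 at 0.719 and Iscu at 0.743. The most abundant, Pcbp1, an iron chaperone of ferritin, was at 139 FPKM in the knockout library and 122 FPKM in the wild-type library.

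Genes of the hypoxia-inducible factor pathway, which acts on gut iron genes, had a median of -0.08. Of these, 9 of 14 were below 0, against 56% of all genes, and 5 above. Of the 14, 4 were lower by 1.5-fold or more and none was higher by as much, against 7.26% and 4.83% of all genes. Besides Ndrg1, which the list of MTF1 targets also holds, these were Egln3, Adm and Bnip3. Egln3, an oxygen sensor of the pathway, was at 18.1 FPKM in the knockout library and 35.5 FPKM in the wild-type library. Adm, the hormone adrenomedullin, was at 1.77 FPKM in the knockout library and 3.94 FPKM in the wild-type library. Bnip3, of mitochondrial turnover, was at 7.59 FPKM in the knockout library and 12.6 FPKM in the wild-type library. Vegfa, a vascular growth factor gene named after its values were seen, was on the other side just short of that size, at 52.7 FPKM in the knockout library and 35.3 FPKM in the wild-type library.

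**Figure D4:**
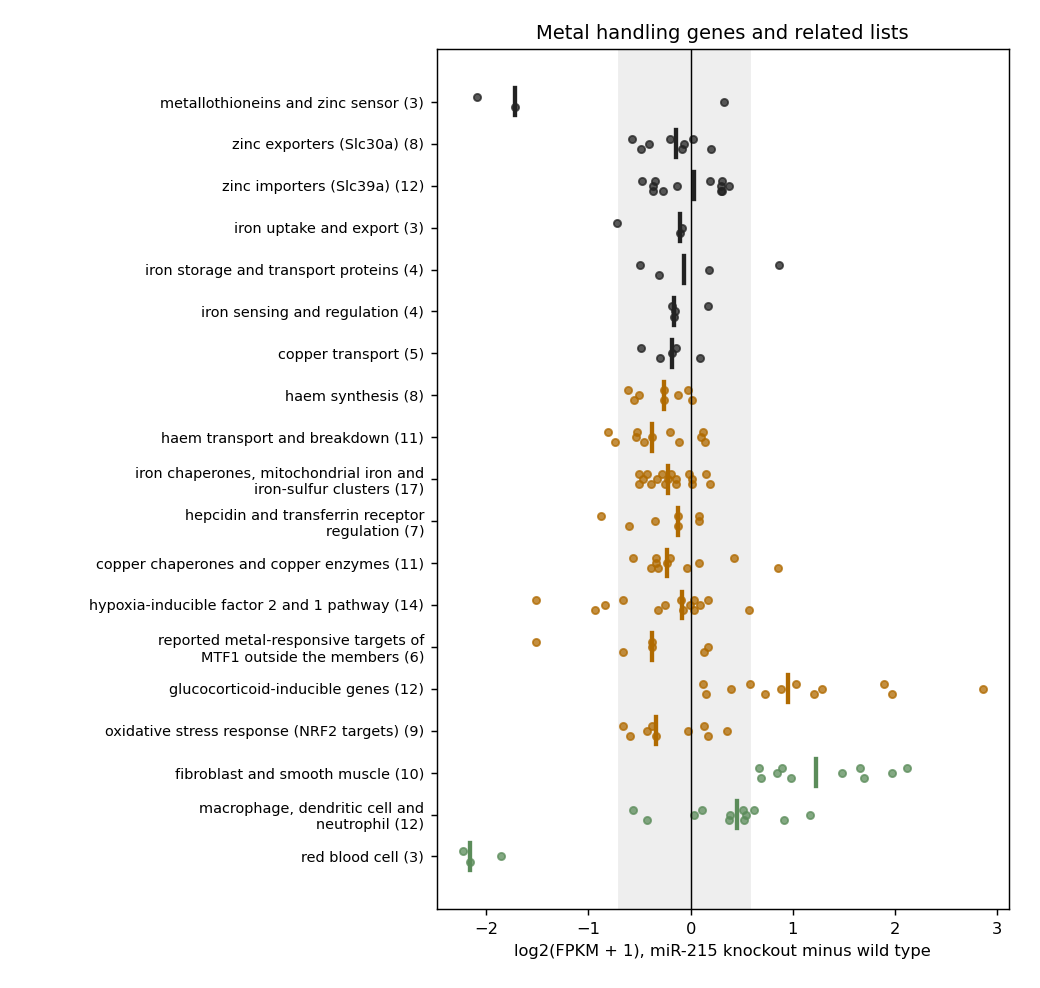
Log2(FPKM + 1), miR-215 knockout minus wild type, for measured genes (points) and medians (bars) of the metal handling roles (black), related lists (orange) and 3 lists of other cell types (green), with the number of measured genes in brackets; the grey band runs from percentile 5 to percentile 95 of all 11504 genes. Mt1 and Mt2 lie left of the band, glucocorticoid-inducible genes and fibroblast and smooth muscle markers lie to the right of 0, and red blood cell genes lie far left.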

How the data were processed

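The deposited files give 1 FPKM value for each gene; no header names the unit, and it was inferred from Cuffnorm 2.2.1 in the submitters' processing notes and from the values. Those notes also name TopHat2 2.0.13, Bowtie2 2.2.3 and SAMtools 0.1.19 and the build mm10; the files hold symbols and no coordinates. Not given in the sources used here are the annotation, the settings, the use of strand and the scaling of one library to the other. Per the labels' protocols, an RNeasy Mini kit gave the RNA and a TruSeq stranded mRNA kit the libraries.

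The members and lists were chosen with earlier results of these data known. All 50 members are accounted for; those of at least 1 FPKM in either library are given with both values, and folds with intervals for those at least 1.5-fold apart and the most abundant of each role; genes named from other lists were drawn from the most abundant gene and the 4 of largest absolute log2 ratio of each, not all of which are printed. Where intervals are given beyond that, they were added after the values were seen.

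Low values lie on steps of whole fragments, which gave the fragment estimates. Of the 602 genes listed above 0 but under 0.1 FPKM in the knockout and the wild-type library, 246 shared a knockout to wild-type ratio of 0.963 (log2 ratios equal to 3 decimals), the relative worth of 1 fragment. Genes with 1 annotated transcript and under 0.3 FPKM came closest to whole fragments with 220 nt taken off the transcript length and 1 fragment over 1 kb worth 0.0985 FPKM in the knockout library and 0.103 in the wild-type library. Lengths were the median of RefSeq-linked GENCODE M21 transcripts. The functions were tested on simulated data. Log2 ratios used a pseudocount of 1 and a minimum of 1 FPKM in at least 1 library. Alternatives changed the pseudocount, the minimum, the scaling and the transcript length. Python 3.11.15, pandas 2.3.3, NumPy 2.4.6, SciPy 1.17.1 and matplotlib 3.10.9 were used.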

Additional observations from a re-analysis of the deposited data

How the results depend on the processing

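With 1 library per genotype, no replicate could be left out. No paired analysis was possible because each genotype has 1 library. On the log2 scale with its pseudocount, Mt1 and Mt2 were the 2 genes at least 2-fold lower, and none was 2-fold higher, under each pseudocount, minimum and scaling tried; the plain FPKM ratio of Tfrc was 2.05 at equal sums. With a pseudocount of 0.1, 2 genes were at least 1.5-fold higher, Slc39a10 joining Tfrc, and Slc30a2 joined the lower ones; with a pseudocount of 5, Slc40a1 was no longer 1.5-fold lower. With the knockout values raised to equal sums, the members' median log2 ratio was -0.031 and that of all genes 0.07. Such a scaling raises the members and all genes alike, so the order of these medians is no check. That scaling took 4 members across a ratio of 1: Heph, Slc11a2, Slc30a6 and Slc30a9. It moved 16 of the 39 ratios outside their counting intervals, and setting the median ratio to 1 moved 2. The shortest annotated transcript changed the intervals and not the ratios.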

Other observations

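Several groups of genes near this biology were also measured. Copper chaperones and copper enzymes were lower in 8 of 11 measured genes, where 56% of all genes were lower. Their median log2 ratio was -0.23. Sod1, the copper and zinc superoxide dismutase, was the most abundant at 633 FPKM in the knockout library and 933 FPKM in the wild-type library, and Cox17, which carries copper to cytochrome oxidase, was at 180 FPKM in the knockout library and 236 FPKM in the wild-type library. Sco2, another copper carrier of cytochrome oxidase, was on the other side, at 103 FPKM in the knockout library and 56.6 FPKM in the wild-type library, a fold of 1.83 (1.64 to 2.04). Loxl2, a copper-dependent lysyl oxidase, was at 1.11 FPKM in the knockout library and 0.578 FPKM in the wild-type library, and passed the minimum through the knockout library alone.

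Oxidative stress genes driven by NRF2 had a median of -0.34 over 9 measured genes, with 6 below 0, where 56% of all genes were, and 3 above. Gclc, Gclm, Txnrd1 and Hmox1 are in this list and in that of MTF1 targets, so the lists are not separate observations. Nqo1 was at 16.3 FPKM in the knockout library and 25 FPKM in the wild-type library, and Prdx1, the most abundant, at 858 FPKM in the knockout library and 1156 FPKM in the wild-type library. Gsr, glutathione reductase, named after its values were seen, was on the other side at 52.6 FPKM in the knockout library and 40.8 FPKM in the wild-type library. Regulators of hepcidin and transferrin receptor had a median of -0.12 over 7 measured genes. In that list Smad6, an inhibitor of BMP signalling, was at 5.26 FPKM in the knockout library and 10.5 FPKM in the wild-type library, and Bmp2, which encodes a ligand of the BMP receptors, was at 6.89 FPKM in the knockout library and 11.0 FPKM in the wild-type library.

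The neighbours of the metallothionein cluster within 100 kb were looked at after the values were seen. Nup93, a nuclear pore gene, was at 7.15 FPKM in the knockout library and 5.43 FPKM in the wild-type library, and Bbs2, a cilium gene, at 2.16 FPKM in the knockout library and 1.80 FPKM in the wild-type library, so the neighbours' ratios were above 1 while those of Mt1 and Mt2 were below it.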
